A study of Danio rerio with 4 samples.

Results

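Some regions that carried 1 continuous peak of 5-hydroxymethylcytosine (5hmC) in control zebrafish were called as several shorter peaks after knockdown of tet2 and tet3. These split control peaks were chosen as control peaks on chromosomes 1 to 25, under 1500 bp wide, that shared at least 1 bp with 2 or more peaks of the tet2/3 morpholino list. There were 2626 of them among 223872 control peaks under that width, or 1.17% (percent of peaks called split), and 29.9% of those control peaks shared at least 1 bp with any tet2/3 morpholino peak. Of the 66920 overlapped control peaks under 1500 bp, 3.92% were split and the other 64294 met exactly 1 peak. The tet2/3 morpholino peaks that overlapped a split control peak are called its pieces.

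5hmC is made when TET enzymes oxidise 5-methylcytosine, and it is both an intermediate of DNA demethylation and a lasting mark in many differentiated tissues. In vertebrates it is found in gene bodies and at enhancers, and it is known to be abundant in neural tissue. tet2 and tet3 encode 2 of the TET enzymes of zebrafish. Morpholinos are antisense oligonucleotides that block the translation or splicing of a transcript.

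The data are 5hmC peak lists of zebrafish at 48 hours after fertilisation, from 1 pull-down with an antibody to 5hmC for each of 2 groups. One group carried a control morpholino and the other a tet2/3 double morpholino. The sources used here do not give the doses, the strain or the number of fish pooled per library. The tissue label reads embryo, whereas the extraction protocol speaks of the head. With 1 library per group there is no replicate check, no test between the groups and no p-value. Intervals in parentheses are 95% confidence intervals for counting error only, and the SD over 25 chromosomes describes the spread within 1 pair of libraries.

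The 2 lists differed in shortest interval, background and scaling, and such differences may bear on every result here. The shortest interval was 222 bp in the control list and 132 bp in the tet2/3 morpholino list, and such peak callers by default take the fragment length as the shortest interval. The lowest background was 7.53 fragments in control, where the pull-down had not been scaled. In tet2/3 morpholino it was 2.81 in scaled units, after the pull-down had been scaled by 0.474. These 2 backgrounds are therefore not in the same unit. As printed, they do not show which pull-down was deeper, since the scaling and the fragment length, which is only inferred here, also enter. No gap between neighbouring peaks was shorter than 101 bp in either list. Any part that depth and fragment length play in the splitting was not tested.

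Split control peaks were wide. They had a median width of 1037 bp (95% CI 1024 to 1052), against 394 bp for all control peaks. The median was 556 bp for overlapped control peaks under 1500 bp that were not split. Of the split control peaks, 67.2% were at least 900 bp wide. The share of overlapped control peaks that were split was 0.208% (0.116 to 0.372) at 200 to 299 bp. It was 1.94% (1.66 to 2.26) at 600 to 699 bp, 12.4% (11.2 to 13.7) at 1000 to 1099 bp and 28.9% (25.8 to 32.2) at 1400 to 1499 bp. The share thus rose in every 100 bp step of width. A wider peak has more room to overlap several peaks of the other list. The rule itself therefore bears on this rise and on the greater width of split peaks, which are given as a description. The width limit of 1500 bp cut through this rise. Just above it, at 1500 to 1599 bp, 31.2% (27.5 to 35.0) of overlapped control peaks were split, with a median control fold of 6.88 and a median cover of 57.8%. Just below it, at 1400 to 1499 bp, the fold was 6.85 and the cover 56.6%. Among all control peaks of 1500 bp or more, 46.8% of the 2520 overlapped ones were split.

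Splitting also occurred in the opposite direction. Of the 80165 tet2/3 morpholino peaks under 1500 bp, 592 (0.738%) were overlapped by 2 or more control peaks. In bins of 100 bp the split share of overlapped peaks had overlapping intervals in the 2 directions at every width from 200 to 999 bp. Overlapping intervals do not show the shares to be equal. Pooled from 500 to under 900 bp, the share was 2.65% (2.47 to 2.84) for control peaks. For tet2/3 morpholino peaks it was 2.18% (1.93 to 2.46), so the pooled intervals did not overlap. Pooling does not match the widths of the 2 lists inside that range. At 800 to 899 bp the share was 6.32% (5.66 to 7.05) for control peaks and 5.68% (4.54 to 7.08) for tet2/3 morpholino peaks. Among wider peaks the control peaks were split more often. From 1000 to 1499 bp the share was 18.7% (17.9 to 19.6) of 7677 overlapped control peaks and 11.2% (9.77 to 12.8) of 1633 overlapped tet2/3 morpholino peaks. The control share was the higher in this range on 25 of 25 chromosomes, by 7.54 ± 3.25 percentage points (SD). The intervals did not overlap in the 3 bins from 1000 to 1299 bp, and they overlapped again from 1300 bp, where few tet2/3 morpholino peaks were that wide. The control list is the longer one, with 226591 peaks against 80550, so the 2 directions do not have equal chances of an overlap.

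**Figure D1:**
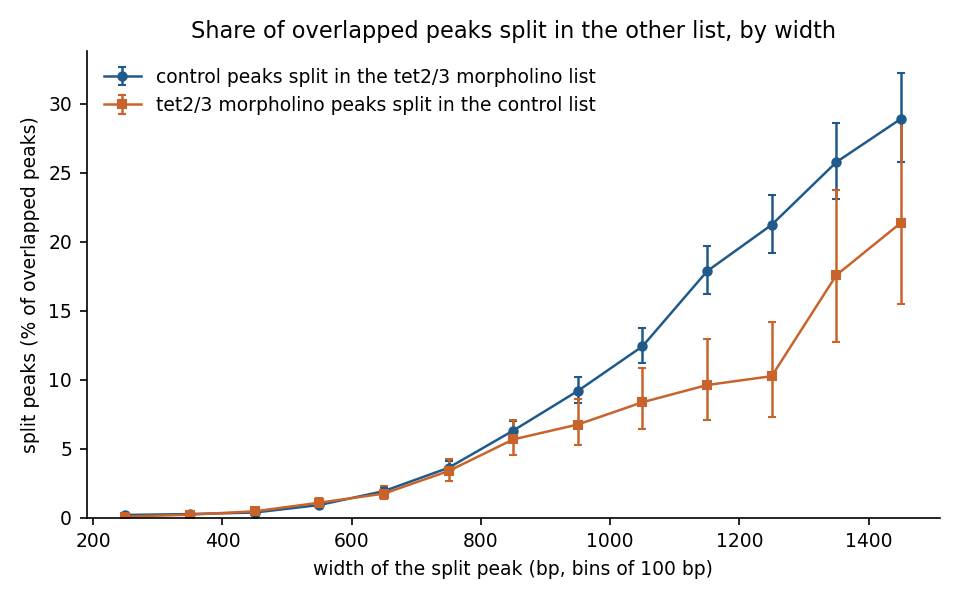
Share of overlapped peaks that were split in the other list (percent, vertical axis) by width of the split peak (bp, bins of 100 bp), for control peaks split in the tet2/3 morpholino list (circles) and tet2/3 morpholino peaks split in the control list (squares). Bars are 95% Wilson intervals. Both curves stay below 8% under 900 bp, and control peaks lie higher from 1000 to 1299 bp, where the intervals do not overlap.

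Most split control peaks fell into a pair of pieces. Of the 2626, 2544 held 2 pieces and 82 held 3. Together they took up 5318 different tet2/3 morpholino peaks, or 6.60% of that list. The pieces had a median width of 266 bp and a median fold of 3.99 over background, against 285 bp and 4.11 for the whole tet2/3 morpholino list. Fold is the authors' ratio of pileup to local background at the summit, with a small constant added to both. The size of a fold is compared here only within a list, although Spearman's rho between folds of the 2 lists is given further on. Split peaks with 3 pieces were wider, with a median of 1289 bp (1239 to 1336) against 1028 bp (1015 to 1044) for those with 2. More pieces need more room, so the count of pieces bears on this difference in width. The cover of split peaks with 3 and with 2 pieces was 60.9% (57.8 to 64.0) and 58.7% (57.6 to 59.4), respectively.

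The pieces did not always lie wholly within the control peak. In 59.1% (57.2 to 61.0) of split control peaks every piece lay inside. The share was 13.6% (9.28 to 19.4) for the 177 split peaks under 600 bp and 69.2% (66.8 to 71.5) for the 1438 of 1000 bp or more. Most split peaks under 600 bp therefore had at least 1 piece that hung over an edge. The smallest shared stretch was 1 bp, and in 33 split peaks the least overlapping piece shared under 10 bp. Of the pieces, 3.01% (2.58 to 3.50) also touched a second control peak, against 0.788% (0.724 to 0.858) of the other tet2/3 morpholino peaks that overlapped control. In 159 split control peaks, a piece was in turn overlapped by 2 or more control peaks.

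The gaps between pieces were short. Across 2708 gaps the median was 166 bp (162 to 170), with an interquartile range of 132 to 246 bp, from 101 bp to 918 bp. Of these gaps, 68.9% (67.2 to 70.7) were shorter than the 222 bp of the shortest control interval, and 27.0% (25.4 to 28.7) were no longer than the 132 bp of the shortest tet2/3 morpholino interval. Gaps of 300 bp or more made up 16.7% (15.3 to 18.1), and gaps of 500 bp or more 3.55% (2.91 to 4.31). When tet2/3 morpholino peaks closer to each other than 222 bp were first joined, 838 control peaks remained split, with a median gap of 309 bp (301 to 319). Most of the gaps were thus shorter than any interval the control list holds. The control list itself has gaps down to 101 bp, however, and only the tet2/3 morpholino list was joined. The gap was 166 bp within 2 Mb of a chromosome end and 165 bp elsewhere, and over the 25 chromosomes it averaged 166 ± 8.17 bp (SD).

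Close tet2/3 morpholino neighbours were not found only in control peaks. The list had 7331 neighbouring peaks less than 500 bp apart, and 35.6% of these gaps lay in a split control peak. A further part lay in control peaks of 1500 bp or more, so that 52.1% were inside a control peak of any width. In the remaining ones, the neighbours did not share a control peak. Among all gaps under 500 bp in that list the median was 216 bp (212 to 220), and 51.6% (50.4 to 52.7) were shorter than 222 bp. In the opposite direction, gaps between control pieces inside a tet2/3 morpholino peak had a median of 158 bp (151 to 165).

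**Figure D2:**
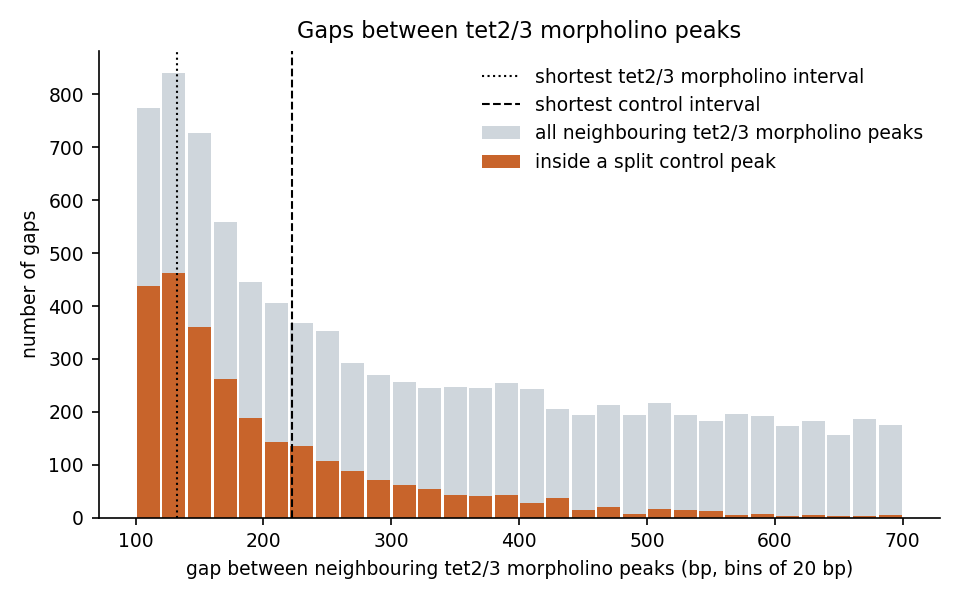
Number of gaps (vertical axis) by length (bp, bins of 20 bp) between neighbouring tet2/3 morpholino peaks, for the whole list (grey, drawn from 0) and for those inside a split control peak (orange, drawn in front from 0). The dotted line marks the shortest tet2/3 morpholino interval (132 bp) and the dashed line the shortest control interval (222 bp). Gaps in split control peaks are most frequent at 120 to 139 bp, with 462, and fall to 136 at 220 to 239 bp.

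The strongest point of the control peak was usually kept. The control summit lay inside a piece in 83.7% (82.2 to 85.0) of split control peaks, in a gap between pieces in 10.5% (9.39 to 11.7) and beyond the outermost piece in 5.83% (4.99 to 6.79). Control peaks that met exactly 1 tet2/3 morpholino peak, weighted to the same widths in bins of 50 bp, held the control summit in that piece in 82.2%. In the other 17.8% the summit lay outside it. The nearest piece summit lay a median of 66 bp (63 to 69) from the control summit, against 96 bp in those 1-piece peaks. The share in a piece differed by 1.49 percentage points, and by 1.18 ± 3.11 (SD) over chromosomes, with the split peaks higher on 17 of 25. When the 1-piece peaks were matched on control fold as well, their share was 79.0%, which put the split peaks 4.68 points higher. The reverse sign was seen among control peaks under 1000 bp, at -1.76 points. A peak with more pieces has more chances to have its summit in one, and more chances of a piece summit close by. The rule itself therefore bears on the comparison of shares and on that of distances.

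Around the control summit, cover by tet2/3 morpholino peaks had 3 high stretches in split control peaks. It was 83.7% at the summit, 42.2% at 240 bp below it and 42.8% at 260 bp above it. At 500 bp it was again 59.8% below and 57.3% above. In 1-piece peaks of the same widths it fell away steadily, from 82.2% at the summit to 34.0% at 500 bp below and 33.6% at 500 bp above. Each value counts only the control peaks that reached that distance. The rise at the flanks follows from the rule, because a split peak has another piece to place.

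**Figure D3:**
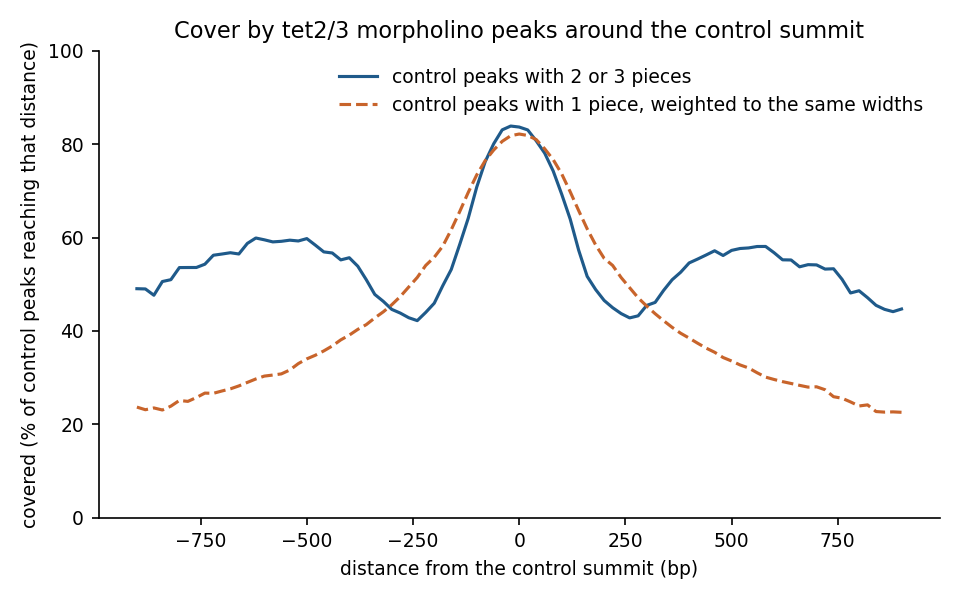
Percent of control peaks covered by a tet2/3 morpholino peak (vertical axis) by distance from the control summit (bp), among control peaks reaching that distance. The solid line shows split control peaks (2 or 3 pieces) and the dashed line 1-piece control peaks weighted to the same widths. Cover at the summit is 83.7% and 82.2%; at 500 bp below it is 59.8% and 34.0%.

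The typical split was a piece over the control summit and another piece far down the longer flank. In 2128 split peaks with 2 pieces, 1 piece held the control summit. Its own summit lay a median of 54 bp from the control summit, and that of the other piece 508 bp away. The other piece lay on the longer side of the control summit in 93.4% (92.2 to 94.4), where there is more room for it, and towards lower coordinates in 49.2% (47.1 to 51.4). The piece over the summit had a median width of 329 bp (320 to 339), against 244 bp (237 to 250) for the other piece. It was the widest in 65.0% (63.0 to 67.0). A wider piece has more chances to hold the summit, so the choice of piece bears on width. Over all split peaks, the strongest piece had a median width of 320 bp and the weakest 231 bp. The choice may therefore bear on fold too. The piece over the summit had a median fold of 4.35 (4.27 to 4.43) against 3.86 (3.80 to 3.88), from 39 and 33 fragments at the summit before scaling. It was the stronger of the pair in 63.1% (61.0 to 65.1), so in the remainder the flank piece was as strong or stronger.

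Control summits lay off centre more often in split peaks than in 1-piece peaks of the same widths. In 58.6% (56.7 to 60.5) of split control peaks, the control summit was farther from the middle than 20% of the peak's width. The share was 41.6% in 1-piece peaks of the same widths, 44.6% when these were also matched on control fold, and 52.7% in control peaks of the same widths with no overlapping tet2/3 morpholino peak. The split peaks were above the 1-piece peaks on 25 of 25 chromosomes, by 16.9 ± 5.67 percentage points (SD), from 9.13 on chromosome 18 to 29.5 on chromosome 10. The median distance from the control summit to the nearer edge was 258 bp in split peaks and 304 bp in 1-piece peaks of the same widths. The rule did not use the position of the control summit, but it set which peaks counted as split. An off-centre summit leaves a longer flank, where the other piece mostly lay, so the rule may bear on this comparison too. The limit of 20% was chosen after the values were seen.

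**Figure D4:**
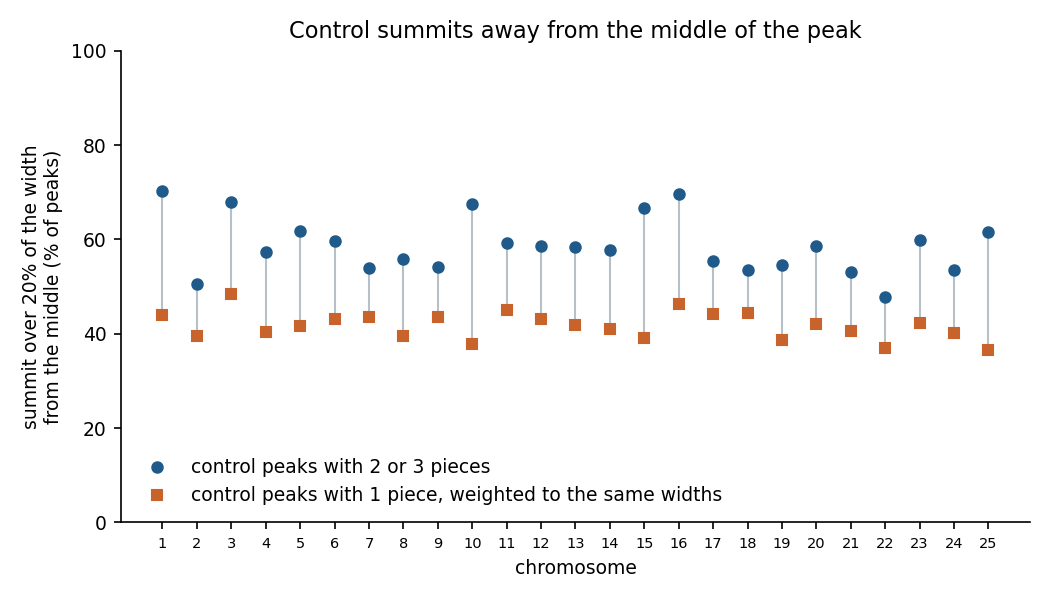
Percent of control peaks whose summit lay farther than 20% of the width from the middle (vertical axis) by chromosome, for split control peaks (circles) and 1-piece control peaks weighted to the same widths (squares). Circles lie above squares on 25 of 25 chromosomes, with means of 58.7% and 41.7%.

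The 276 control peaks whose summit fell into a gap were weaker and narrower than the split peaks in which a piece held the summit. Their median control fold was 4.89 (4.77 to 5.16) from 49 fragments, against 6.03 (5.87 to 6.21) from 59 fragments where a piece held the summit. Their width was 897 bp (835 to 940) against 1048 bp (1031 to 1065). These sets were not matched on width. Among all split peaks the median control fold was 5.36 at 800 to 899 bp and 6.21 at 1000 to 1099 bp, so width bears on the difference in fold. Within 1000 to 1499 bp, the summit lay in a gap in 4.81% of split peaks at control folds from 2 to 4. The share was 11.6% from 4 to 5, 11.8% from 5 to 6 and 6.88% from 6 to 8. From 8 to 10 it was 5.49%, from 10 to 12 it was 3.23% and from 12 upwards 1.96%. It thus fell from a fold of 5 upwards, but the weakest step was also low. Cover was 51.1% (49.2 to 55.8) in the 276 gap peaks against 60.5% (59.7 to 61.4) where a piece held the summit. The median largest gap was 173 bp (157 to 194) against 167 bp (163 to 172), with overlapping intervals. The 153 split peaks with the summit beyond the outermost piece had a control fold of 5.35 (4.82 to 5.70), whose interval overlaps that of the gap peaks, and a lower cover, at 38.9% (36.6 to 41.9). Where a gap held the summit, the pieces on either side of it were of like strength. The median ratio of the stronger to the weaker fold was 1.21. Over all split peaks, the strongest piece exceeded the weakest in fold by a median of 1.28 times. In the 11 narrowest split peaks, at 222 to 299 bp, the control summit lay in the gap in 72.7%, and at 1400 to 1499 bp in 7.27%. All 11 had a piece over an edge. No gap was under 101 bp, so a gap takes up much of so narrow a peak and width bears on these shares.

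Split control peaks were weaker than 1-piece control peaks of the same width. The median control fold was 5.85 (5.71 to 5.97) in split peaks, 6.56 in 1-piece peaks of the same widths and 4.87 in control peaks of the same widths that met no tet2/3 morpholino peak. The corresponding fragments at the control summit were 58, 64 and 48. Split peaks were the lower on 23 of 25 chromosomes, and the difference in fold, split minus 1-piece, was -0.743 ± 0.462 (SD). Local control background was alike, with medians of 8.42, 8.43 and 8.61 fragments. The difference in fold was -1.09 among control peaks under 1000 bp and -0.496 with no upper limit on width, so it was smaller where wide peaks entered. At 400 to 499 bp the median fold was 3.41 in split and 5.11 in 1-piece peaks. It was 6.21 and 6.63 at 1000 to 1099 bp, and 6.85 and 7.38 at 1400 to 1499 bp. The rule sorts control peaks by their tet2/3 morpholino overlaps, so it may bear on this comparison too.

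At a width of 1000 to 1499 bp, the share of all control peaks that were split was lowest among the weakest control peaks, with an interval that overlapped those of some stronger steps. For control folds from 2 to 4 it was 11.6% (9.65 to 13.8) of all control peaks. For folds from 6 to 8 it reached 15.6% (14.3 to 16.9), and from 12 upwards 17.3% (13.4 to 22.0). Over the same steps, control peaks without any overlap fell from 45.8% to 14.4% and 0.678%. Among overlapped control peaks, the split share was 21.4% (17.9 to 25.2) for folds from 2 to 4, 21.9% (19.4 to 24.6) from 4 to 5, 20.4% (18.3 to 22.7) from 5 to 6 and 18.2% (16.8 to 19.7) from 6 to 8. From 8 to 10 it was 16.9% (15.1 to 18.9), from 10 to 12 it was 15.4% (12.8 to 18.5), and from 12 upwards 17.4% (13.5 to 22.2). The interval for folds from 4 to 5 lay above those from 8 to 10 and from 10 to 12, while the interval from 12 upwards overlapped all the others. Even among the strongest control peaks of this width, where 293 of 295 were overlapped, 51 were split. The median largest gap lay between 178 bp and 198 bp in all 7 fold steps. Across the 1438 split peaks of at least 1000 bp, Spearman's rho between control fold and largest gap was -0.0433. These values share a library and a peak caller and are given as a description.

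The pieces covered more of the control peak than a single overlapping peak did, although this depended on how close neighbours were treated. Median cover was 58.7% (57.8 to 59.5) in split control peaks and 50.0% in 1-piece peaks of the same widths, or 556 bp against 469 bp. It was the higher in split peaks on 25 of 25 chromosomes, by 8.29 ± 2.92 percentage points (SD). After tet2/3 morpholino peaks closer than 222 bp had been joined, the difference turned to -2.56 points. The interquartile range was narrower in split peaks, at 46.6% to 69.5%, than in 1-piece peaks, at 32.0% to 70.3%. The rule counts pieces, so it bears on cover too, and this comparison is a description. From the first edge of the first piece to the last edge of the last, the pieces spanned a median of 82.0% of the split control peak.

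Cover followed control strength more closely in 1-piece peaks than in split peaks, a comparison on which the rule bears. A split peak has 2 or more pieces at any control strength, which adds to its cover, and its strongest piece is the highest of them. The values are given as a description. At 1000 to 1499 bp and a control fold of 2 to 4, median cover was 56.8% in split peaks and 34.4% in 1-piece peaks. At a fold of 6 to 8 it was 56.6% and 46.8%, and at 12 or more both were at 70.1%. Spearman's rho between control fold and cover was 0.134 over 1438 split peaks and 0.286 over 6239 1-piece peaks of this width, and between control fold and the fold of the strongest piece 0.224 and 0.355.

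Over all pieces of split control peaks the median −log10 q-value was 4.67, against 5.00 for the whole tet2/3 morpholino list, whose lowest value was 1.31. The median was 3.42 for the weakest and 6.38 for the strongest piece of a split peak, an order that taking the lower and the higher of the pieces fixes. Below a −log10 q of 5 lay 79.6% (78.0 to 81.1) of the weakest pieces and 33.0% (31.2 to 34.8) of the strongest, shares that this choice shifts by construction. The share was 51.9% (51.5 to 52.2) over the whole tet2/3 morpholino list. For the only piece of 1-piece peaks weighted to the same widths it was 36.4%. With only tet2/3 morpholino peaks at 5 or more, 543 control peaks were split in place of 2626. The fold of the strongest piece was 4.61 in split peaks. The only piece of 1-piece peaks had 4.59 at the same widths, and 4.42 when these were also matched on control fold. Median fragments at the summit before scaling were 40 for the strongest piece and 42 for the only piece at the same widths. Taking the highest of 2 or 3 pieces raises the value in split peaks, so the rule bears on this comparison. The strongest piece exceeded the weakest in fold by a median of 1.28 times. In 20.2% (18.7 to 21.8) the pieces were within 1.1 times of each other, and in 27.3% (25.7 to 29.1) they differed by more than 1.5 times.

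Split control peaks were found on every chromosome. Their number ran from 71 on chromosome 22 to 178 on chromosome 7, and their share of overlapped control peaks was 3.91 ± 0.367% (SD over the 25 chromosomes). Chromosome 3 had the lowest share, 3.10%, and chromosome 16 the highest, 4.63%. Density was lowest on chromosomes 3 and 4, at 1.29 per Mb on both, and highest on chromosome 19, at 2.50 per Mb. The median distance from a split peak to the nearest other split peak was 67.0 kb, and 17.4% (16.0 to 18.9) had another within 10 kb. They had a median of 6 other control peaks within 10 kb, the same as 1-piece peaks of the same widths.

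Chromosome ends held an excess of split control peaks. Within 2 Mb of an end lay 31.6% (29.8 to 33.4) of split control peaks, 16.0% (15.7 to 16.3) of 1-piece peaks and 7.52% (7.39 to 7.65) of those with no overlap. Weighted to the same widths, 23.0% of overlapped control peaks near the ends were split, and 11.7% elsewhere. The unweighted share was the higher near the ends on 25 of 25 chromosomes, by 4.14 ± 1.46 percentage points (SD). Tet2/3 morpholino peaks were also stronger there in split peaks, with a median strongest piece of fold 5.07 (4.94 to 5.23) against 4.46 (4.37 to 4.50). The summit lay in a gap in 10.3% (8.37 to 12.5) near the ends and 10.6% (9.29 to 12.1) elsewhere.

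The 6 split control peaks with the highest control fold kept a piece over the control summit. The strongest, at chromosome 9:55922523-55923610, had a control fold of 19.7 from 167 fragments. Its pieces lay at 55922018-55922991, with a fold of 5.85, and at 55923112-55923423, with a fold of 6.60 and its summit 54 bp from the control summit. The first of these pieces hung over the control peak's lower edge, and the gap between them was 120 bp. The second, at chromosome 17:53133159-53134152, had a control fold of 17.5 and pieces with folds of 4.68 and 6.32, 156 bp apart. A neighbour on the same chromosome, at chromosome 17:53136204-53137236, ranked 5 by control fold, at 16.4. Its summit piece had a fold of 10.9, and a piece of 166 bp with a fold of 4.23 lay at its lower edge, across a gap of 367 bp. The third, at chromosome 20:30748472-30749546, had a control fold of 16.7 and the highest cover of the 6, at 80.6%, with pieces of fold 10.3 and 4.91. The fourth, at chromosome 16:55019966-55021026, also had a control fold of 16.4 but a cover of only 36.9%. Its pieces were of nearly equal fold, at 4.98 and 4.73, and 353 bp apart. The sixth, at chromosome 18:44294669-44295752, had a control fold of 16.0 and pieces of fold 3.14 and 4.61. Of the 6, 4 lay within 1 Mb of a chromosome end.

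The 4 strongest control peaks with 3 pieces differed in how the pieces were laid out. At chromosome 18:49077999-49079451 (control fold 14.7) the pieces had folds of 7.68, 4.81 and 3.89 in order of position, and 78.1% of the peak was covered. At chromosome 1:23130551-23131540 (control fold 11.5) the folds were 6.00, 4.09 and 2.69. In both of these the piece over the control summit came first and was the strongest. At chromosome 7:37604924-37606309 (control fold 12.6) the control summit lay in the middle piece, and the folds were alike, at 3.61, 3.80 and 3.54. At chromosome 22:33101452-33102756 (control fold 12.9) the summit lay in the last piece, with a fold of 4.04, and the others were at 2.43 and 2.51. Over all 82 peaks with 3 pieces, the control summit was in the middle piece in 20, and the middle piece was the strongest in 28.

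The longest gaps over a control summit left a piece near either edge and none at the middle. At chromosome 23:37117373-37118661 a gap of 709 bp held the control summit, which had a fold of 5.76 from 63 fragments. The pieces were 212 bp and 158 bp wide, with folds of 3.67 and 3.91, and 28.7% of the control peak was covered. At chromosome 3:26514193-26515394 the gap was 683 bp under a control fold of 7.00, with pieces of fold 3.22 and 3.25. The nearest piece summits were 366 bp and 334 bp from these control summits. At chromosome 24:30406170-30407503 the gap was 685 bp and the control fold 4.22, and at chromosome 22:37258621-37259948 they were 678 bp and 4.78. In each of these 4 control peaks the pieces were no more than 1.16 times apart in fold. No gene is named for these positions, because no gene annotation of the assembly of the peak coordinates (GRCz11) was at hand.

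The 3 split control peaks with the highest fold in their weaker piece had control folds from 5.66 to 9.96. The median control fold over all split peaks was 5.85. At chromosome 1:58934209-58935308 the control fold was 5.66, and the pieces had folds of 11.6 and 13.9 from 96 and 115 fragments before scaling. At chromosome 5:325120-326131 the control fold was 6.21, with pieces of fold 8.89 and 11.6 separated by 106 bp. At chromosome 13:48873798-48874804 the control fold was 9.96, with pieces of fold 9.58 and 8.96 separated by 275 bp. In all 3, the piece with its summit nearest to the control summit lay at the higher coordinate, and the control summit was inside it. Control and tet2/3 morpholino folds come from unlike backgrounds, so their sizes are given side by side here without being compared.

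**Figure D5:**
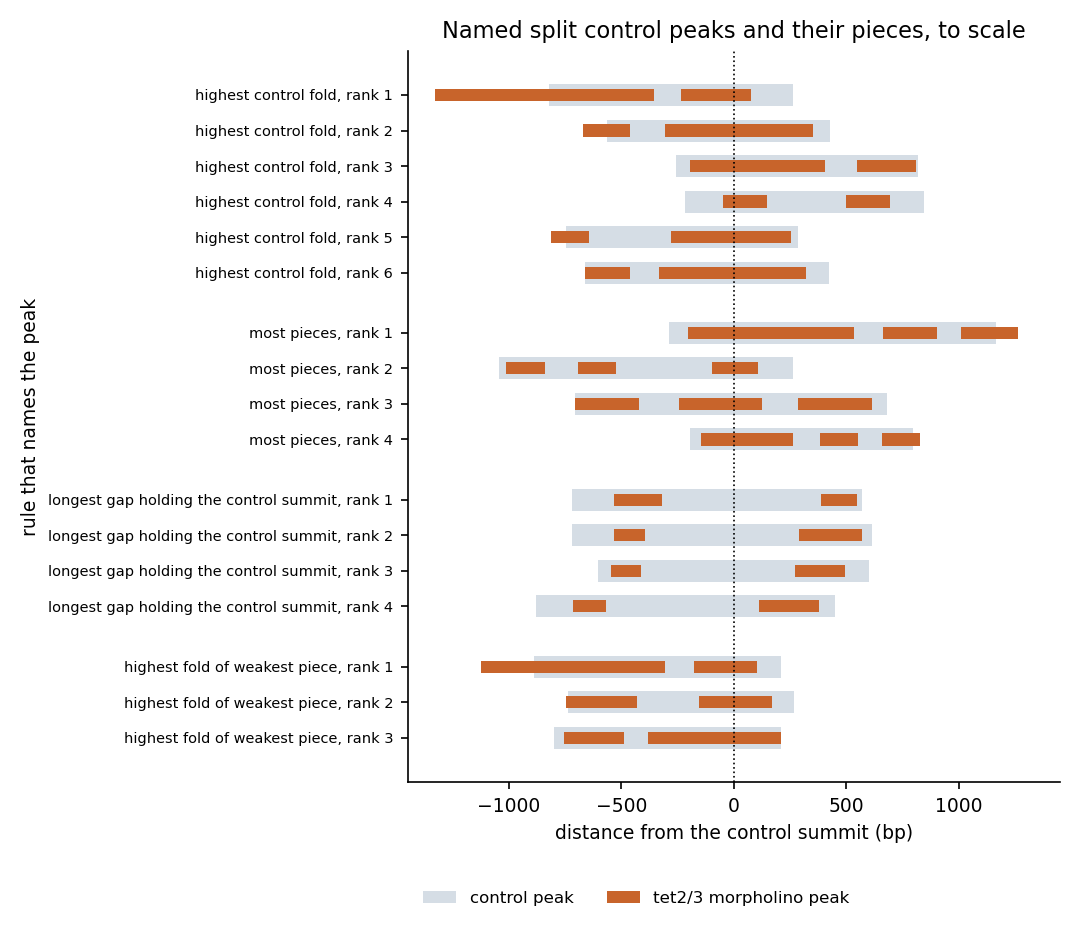
The 17 named split control peaks (grey bars) and their tet2/3 morpholino pieces (orange bars), to scale, by distance from the control summit (bp, dotted line at 0), grouped by the rule that names them. A piece covers the summit in the 6 peaks with the highest control fold, and none does in the 4 with the longest gap over the summit.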

How the data were processed

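The labels name 1 pull-down and 1 input per group, and only the pull-downs have lists here, so the inputs come in through the peak calling alone. Per the submitters' processing notes, Bowtie2 2.2.6, MACS2 2.2.7.1 and deepTools were used with GRCz11 (danRer11). The sources used here do not give settings or any pooling. Each deposited list gives a score (10 times the −log10 q-value, without decimals), −log10 p-values and −log10 q-values. It also gives a fold (the authors' ratio of summit pileup to background, with a small constant added to both). Coordinates are printed 1-based.

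Overlaps, covers, gaps and summit positions were computed from the deposited positions (Python 3.11.15, pandas 2.3.3, numpy 2.4.6, scipy 1.17.1). 1-piece and not overlapped control peaks were weighted to the widths of the split peaks in bins of 50 bp. Fragments and background at each summit were solved under a Poisson model from both deposited measures, fold and p-value, and 100% of peaks were solved within a relative misfit of 0.0001. The steps were tested on simulated data. Shares have Wilson intervals and medians order-statistic intervals.

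The split peaks, the measures and the comparison group were chosen with earlier results of these data known, as was the rule for named peaks: the 6 highest control folds, the 4 with most pieces (ties by control fold), the 4 longest gaps holding the control summit and the 3 highest folds of the weakest piece. Alternatives covered overlap, thresholds, joining, width, sequences, chromosome ends and matching. No genome sequence was used, so no sequence is shown.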

Additional observations from a re-analysis of the deposited data

Results flagged for a closer look

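Unplaced scaffolds were outside the comparisons of the report, yet they held split control peaks as well. There, 114 control peaks under 1500 bp, on 83 scaffolds, were overlapped by 2 or more tet2/3 morpholino peaks. They made up 6.91% (95% CI 5.79 to 8.24) of the 1649 overlapped control peaks on scaffolds. Median cover was 62.0%, the median gap 161 bp, and the control summit lay in a gap in 17.5%.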

How the results depend on the processing

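All values here are descriptions with no test. With only tet2/3 morpholino peaks at a −log10 q of at least 5, 543 control peaks were split (0.243%), with a cover of 67.5% and a nearest piece summit at 56 bp. The control summit then lay in a gap in 4.05%, and split peaks differed from 1-piece peaks by 10.4 points in cover, 6.13 points in summits in a piece and -0.536 in control fold. With neighbours closer than 222 bp joined, 838 were split (0.374%), with a cover of 50.1%, a gap of 309 bp and a cover difference that reversed to -2.56 points. Under 1000 bp of width, 1188 were split (0.554%), with a cover of 59.5%, a gap of 151 bp, a nearest piece summit at 60 bp and 13.97% of summits in a gap. The differences from 1-piece peaks were then 7.80 points in cover, -1.76 points (reversed) in summits in a piece and -1.09 in control fold. With no upper limit, the split share was 1.68%, the gap 180 bp, summits in a gap 9.01%, the nearest piece summit at 73 bp, and the differences 3.49 points in summits in a piece and -0.496 in control fold. Without 2 Mb at each chromosome end, the share was 0.894%, cover 56.6%, the fold difference -0.502, and tet2/3 morpholino peaks split in control 381. The share was 1.12% with 50 bp shared by each piece, 1.04% with 50% of each piece inside (and 232 tet2/3 morpholino peaks split in control) and 1.36% for control peaks at a −log10 q of at least 5. Matching on fold as well gave differences of 11.4 points in cover and 4.68 in summits in a piece. Joining below the smallest control gap changed nothing, since no such neighbours exist. Stricter rules and joining lower the numbers by construction, and for the remaining shifts the cause was not tested. The 3 differences from 1-piece peaks were added after seeing the data. No paired analysis was possible because the labels name a single pull-down for either group.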
